A study of Mus musculus with 6 samples.

Results

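Gja1, Amotl2, Sh3kbp1 and Sh3gl1 are 4 genes of cell junctions and of the adaptor machinery of endocytosis, and they were followed here in the liver of mice given an extract of jujube. They were taken by gene symbol from a table in which the authors listed 122 genes as deregulated, each paired with 1 of the 45220 features of the array. The 4 genes were selected on the extract and control intensities of these same mice, since the authors' list was drawn up on them and the 4 were picked with the results in view. Their differences between the groups are therefore a description, with no test of their own and no weight as evidence of a response. The extract group held 3 male mice that received 500 µl of an aqueous extract of Ziziphus jujuba at 6 mg/mL by gavage each day for 20 days. The control group held 3 male mice that received water by gavage over the same time. All were 8 weeks old at the start and ate standard chow, and no strain is named in the labels. RNA from a block of each liver was hybridised to a 1-colour array, 1 mouse per array.

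Gja1 encodes connexin 43, a protein that forms gap junction channels, through which ions and small metabolites pass between neighbouring cells. In the liver, hepatocytes are coupled mainly by other connexins, and connexin 43 is known chiefly from stellate, endothelial and Kupffer cells and from the liver capsule. Amotl2 encodes angiomotin-like 2, a scaffold at tight junctions and along actin filaments that binds the coactivator YAP of the Hippo pathway. Sh3kbp1 encodes CIN85, an adaptor with SH3 domains that binds the ubiquitin ligase Cbl. Sh3gl1 encodes endophilin A2, a membrane-bending BAR domain protein with an SH3 domain that recruits dynamin and synaptojanin to the necks of endocytic vesicles. CIN85 and endophilins bind each other, and both take part in the removal of growth factor receptors from the cell surface.

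The arrays themselves differed in brightness, and 1 stood apart. The 9434 features above an intensity of 100 on all 6 arrays are called bright, and the 4 members were among them. Relative to the mean over arrays, the median log2 intensity of bright features was -0.23, 0.33 and 0.14 on extract arrays 1, 2 and 3, and -0.22, -0.18 and 0.15 on control arrays 1, 2 and 3. The array of extract mouse 1 correlated at 0.955 to 0.959 with the rest over bright features, and the other arrays correlated with each other more closely. Only the authors' table pairs features with genes here, so 2 of 11 hepatocyte markers (Cyp4a12a and Vnn1), 1 of 6 markers of sinusoidal endothelium (Fcgr2b) and none of the 8 stellate cell markers could be read. The male-biased hepatic gene Cyp4a12a had 354, 422 and 368 in extract livers and 197, 190 and 237 in control livers, so this liver gene was above 100 on every array. Vnn1, a pantetheinase gene, had 283, 1862 and 891 in extract livers and 669, 846 and 1236 in control livers, and the endothelial Fc receptor gene Fcgr2b had 44, 653 and 821 in extract livers and 139, 214 and 807 in control livers. Both overlapped between the groups and were lowest in extract mouse 1. Whether cell types shifted between the groups was not tested.

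After quantile normalization between arrays, the lowest extract mouse was above the highest control mouse for all 4 genes and group means differed by 1.50-fold to 1.63-fold, but none passed the test threshold over all features. The extract minus control difference on the log2 scale was 0.70 for Sh3gl1, 0.65 for Gja1, 0.64 for Amotl2 and 0.59 for Sh3kbp1. Without extract mouse 1 it was 0.53 for Sh3gl1, 0.70 for Gja1, 0.58 for Amotl2 and 0.54 for Sh3kbp1. Under 1 of the scalings tried, the 75th percentile of all features, the 4 differences were negative (-0.19 to -0.13). No member, against 2.14% of all features, then had all extract mice above all control mice. With local deviations on the array subtracted, Amotl2 was at 0.35 and Sh3kbp1 at 0.31, and the groups of Sh3kbp1 overlapped. At a limma adjusted p below 0.05, 0 of the 4 genes and 0% of the 45220 features were called, and at an unadjusted p below 0.05 3 genes and 2.20% of features were called higher, of 2313 features called in either direction. An unmoderated test with unequal variances also called 0 features. The groups did not overlap, with extract above control, for all 4 genes, for 4.33% of all features and for 9.54% of the bright features. Nothing is read from that contrast, because the choice of the genes used it. Liver tissue holds several cell types, and a change in the number of cells of a type and a change in RNA per cell cannot be told apart.

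**Figure D1:**
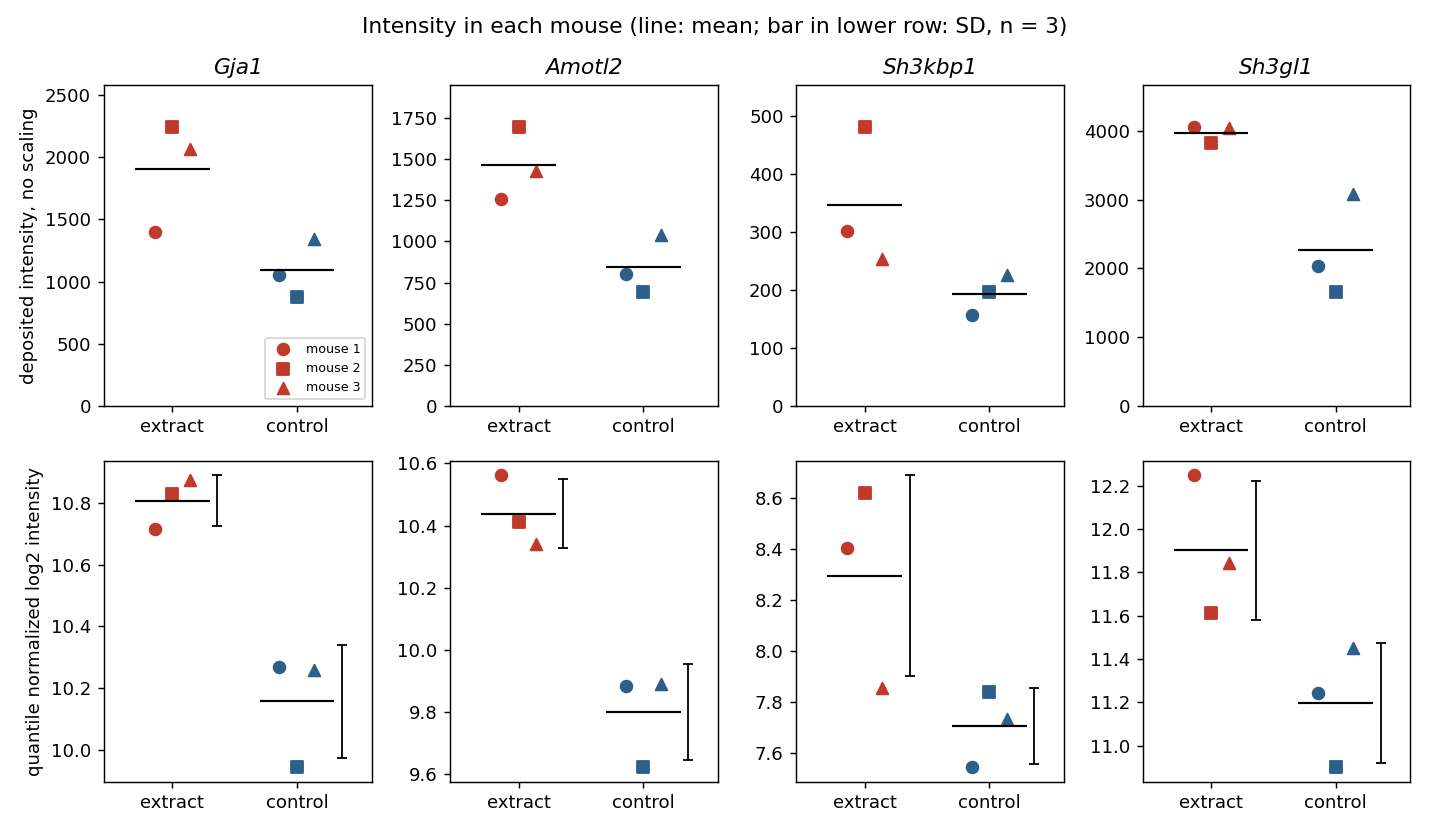
Intensity of Gja1, Amotl2, Sh3kbp1 and Sh3gl1 in each of 3 extract mice (red, left) and 3 control mice (blue, right), as deposited (upper row, axis from 0) and as quantile normalized log2 values (lower row, axis not from 0). Lines are group means and bars in the lower row are SD (n = 3); the extract mice lie above the control mice in every panel, and the narrowest gap in the lower row is that of Sh3kbp1 (0.016).

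Gja1, the channel gene, had a wider gap between the groups once the arrays were scaled than before. Its deposited intensities were 1397, 2246 and 2071 in extract mice 1, 2 and 3, and 1053, 872 and 1344 in control mice 1, 2 and 3. The lowest extract mouse was thus 1.04 times the highest control mouse. Extract mouse 1, whose array had the lowest median of bright features, was the low one of its group, and control mouse 3, whose array had the highest such median among controls, was the high one of its group. After quantile normalization Gja1 was 10.72, 10.83 and 10.87 in the extract mice, against 10.27, 9.94 and 10.26 in the control mice on the log2 scale. The gap between the nearest mice then measured 0.45. Group values were 10.81 ± 0.08 in extract livers and 10.16 ± 0.18 in control livers (SD, n = 3 each), a difference of 0.65 (SE 0.15). The spread within groups, a pooled SD of 0.14 after normalization, was below the 0.22 that was the median of bright features. Gja1 was chosen on these same intensities, so nothing is read from that comparison. Without scaling, the SD of log2 values was 0.37 in extract livers and 0.31 in control livers.

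Amotl2, the junctional scaffold gene, was the other member with a narrow spread within groups after quantile normalization. Without scaling, its SD of log2 values was 0.22 in extract livers and 0.30 in control livers. Its deposited intensities were 1260, 1698 and 1430 in extract mice 1, 2 and 3, and 804, 693 and 1042 in control mice 1, 2 and 3. The groups did not overlap, and the lowest extract mouse was 1.21 times the highest control mouse. Normalized values were 10.56, 10.41 and 10.34 in the extract mice, against 9.88, 9.62 and 9.89 in the control mice. Here extract mouse 1 was the highest of its group, where for Gja1 it was the lowest. The means were 10.44 ± 0.11 in extract livers and 9.80 ± 0.15 in control livers (SD, n = 3 each), which gives a difference of 0.64 (SE 0.15). With local deviations on the array subtracted it was 0.35, and all 23 bright features around Amotl2 on the array were higher in the extract group as well.

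The sequences before the start of Gja1 and Amotl2 are shown because they hold a match of the motifs searched. The windows are the 250 bases before the start site in RefSeq's GRCm38.p6 annotation, 5′ to 3′ on the strand of the gene, chr10:56377050-56377299 for Gja1 and chr9:102717554-102717803 for Amotl2, both on the plus strand. Capitals mark the match.
Gja1: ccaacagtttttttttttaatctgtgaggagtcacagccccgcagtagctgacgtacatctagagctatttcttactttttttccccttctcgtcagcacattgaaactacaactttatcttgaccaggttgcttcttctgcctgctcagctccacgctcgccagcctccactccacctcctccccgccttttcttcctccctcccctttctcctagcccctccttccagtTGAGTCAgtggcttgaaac
Amotl2: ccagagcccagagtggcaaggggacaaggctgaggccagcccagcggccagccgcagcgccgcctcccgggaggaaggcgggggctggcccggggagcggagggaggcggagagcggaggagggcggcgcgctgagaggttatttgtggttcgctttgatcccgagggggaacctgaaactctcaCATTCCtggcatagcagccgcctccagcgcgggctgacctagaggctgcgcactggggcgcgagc
The motifs were TGANTCA, the AP-1 motif, and GGAATG, the core of the TEAD motif, the factor family through which YAP acts on DNA. Both strands were searched from 250 bases before to 50 bases after the start, and no match of 1 motif overlapped a match of the other in these genes. Gja1 held TGAGTCA, whose first base is 19 bases before the start, and no GGAATG on either strand. Amotl2 held CATTCC, the TEAD motif on the other strand, whose first base is 65 bases before the start, and no TGANTCA. Of all 32851 promoter entries, 7.8% held the AP-1 motif and 14.7% the TEAD motif. Sh3kbp1 has 4 entries, of which the one that begins at 159840218 on chromosome X held TGACTCA from base 15 after the start and the others held neither motif. The 2 entries of Sh3gl1 on chromosome 17 held neither. No motif was therefore common to the 4 genes in these windows, and a match is letters in a sequence, not a bound site. The searched 300-base entries, which run on to 50 bases after the start, also differed in base composition. GC made up 47.7% of the Gja1 entry and 68.7% of the Amotl2 entry, where the median of all entries was 52.7%. The 2 entries of Sh3gl1 had 59.7% and 64.3%. The 4 entries of Sh3kbp1 had 76.3%, 74.7%, 51.3% (the entry with TGACTCA) and 47.3%.

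Sh3kbp1, the adaptor gene of receptor uptake, had the narrowest gap between groups after quantile normalization, while in the deposited intensities that was Gja1. Its deposited intensities were 302, 482 and 254 in extract mice 1, 2 and 3, and 157, 197 and 226 in control mice 1, 2 and 3. Extract mouse 2 stood well above the rest, and extract mouse 3 was 1.12 times the highest control mouse. Normalized values were 8.41, 8.62 and 7.86 in the extract mice, against 7.54, 7.84 and 7.73 in the control mice. Extract mouse 3 and control mouse 2 were thus 0.016 apart on the log2 scale, which is less than the SD of either group. The means were 8.29 ± 0.39 in extract livers and 7.71 ± 0.15 in control livers (SD, n = 3 each), a difference of 0.59 (SE 0.25). With local deviations on the array subtracted the difference was 0.31 and the groups overlapped. The quantile normalized difference was 0.42 without extract mouse 2 and 0.81 without extract mouse 3. RefSeq lists 23 transcripts of Sh3kbp1, 8 of them curated, against 1 of Gja1. The feature is annotated to 1 of the Sh3kbp1 transcripts, so which forms it reads was not tested.

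Sh3gl1, the endophilin gene, had the largest quantile normalized difference of the 4 with all 6 mice, and nearly equal deposited values in the extract group. Intensities were 4061, 3823 and 4037 in extract mice 1, 2 and 3, and 2037, 1658 and 3089 in control mice 1, 2 and 3. The 3 extract mice lay close together and control mouse 3 was the high control. Scaling between arrays spread the values to 12.25, 11.61 and 11.84 in the extract mice, against 11.24, 10.90 and 11.45 in the control mice. The SD of log2 values in the extract group was 0.048 without scaling and 0.32 after it. The means were 11.90 ± 0.32 in extract livers and 11.20 ± 0.28 in control livers (SD, n = 3 each), with a difference of 0.70 (SE 0.25). Extract mouse 1 was highest. Without that mouse the difference was 0.53, then the smallest of the 4, and without extract mouse 2 it was 0.85.

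**Figure D2:**
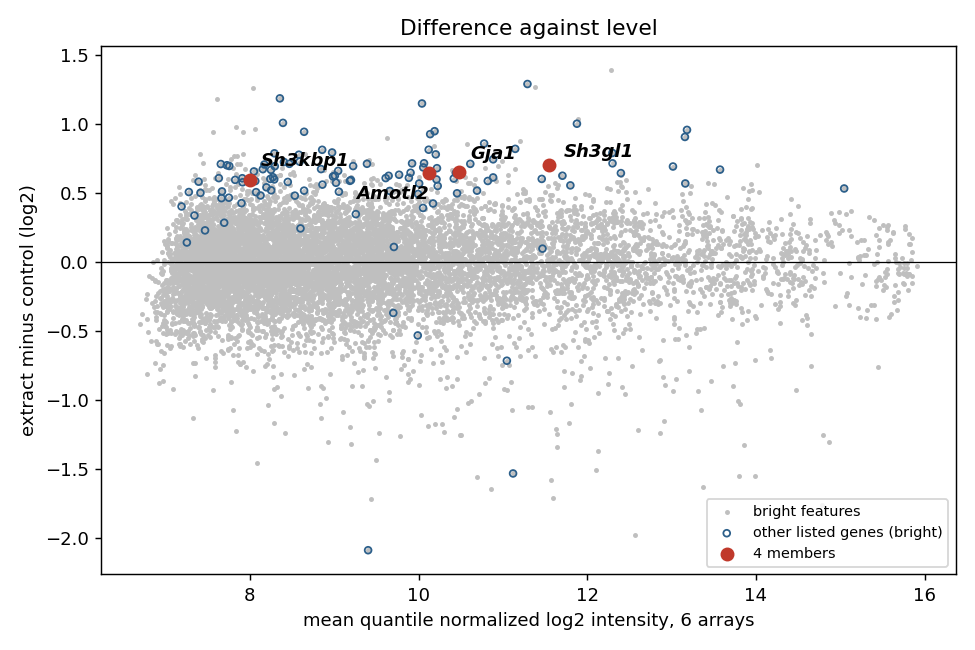
Extract minus control difference (log2, vertical axis) against the mean quantile normalized log2 intensity over 6 arrays (horizontal axis) for 9434 bright features (grey), the other listed genes among them (blue rings) and the 4 members (red). The members lie between 0.59 and 0.70, inside the band that most listed genes occupy.

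The differences kept their direction under each scaling except 1. Without any scaling between arrays the differences were 0.80 for Gja1, 0.80 for Amotl2, 0.80 for Sh3kbp1 and 0.86 for Sh3gl1, while the median bright feature was itself 0.18 higher in the extract group. All extract mice were then above all control mice for the 4 genes and for 12.0% of all features. With the 75th percentile of bright features as the scale, the values were 0.65 for Gja1, 0.65 for Amotl2, 0.65 for Sh3kbp1 and 0.71 for Sh3gl1, and all extract mice were above all control mice for the 4 genes and for 12.2% of features. With the 75th percentile of all features as the scale, the sign turned, to -0.19 for Gja1, -0.19 for Amotl2, -0.19 for Sh3kbp1 and -0.13 for Sh3gl1. That percentile lay at intensities of 99, 123 and 111 on the extract arrays and 41, 41 and 102 on the control arrays, and under it the median bright feature stood at -0.81. Under that setting no member and 2.14% of features had all extract mice above all control mice. Relative to the median of bright features, the members differed by 0.62 to 0.68 under these 3 settings, which give the same values by construction because they differ only by a constant per array.

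**Figure D3:**
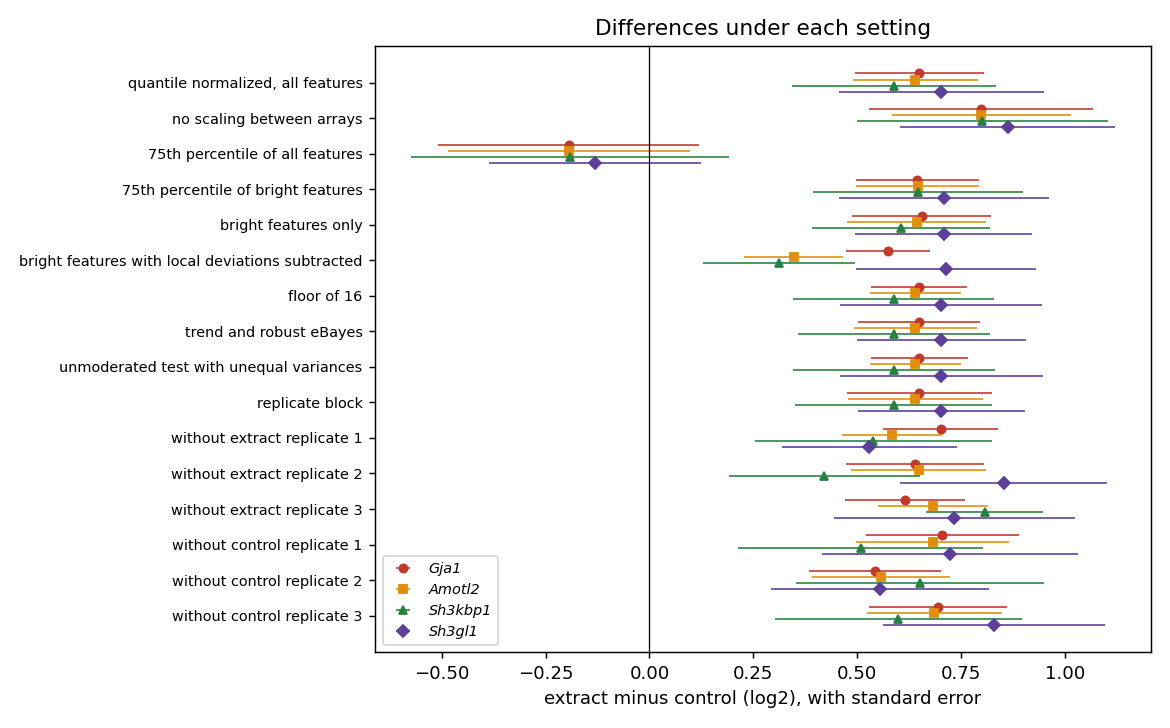
Extract minus control difference (log2, horizontal axis) of the 4 members with its standard error under each setting (vertical axis), all 6 mice unless a mouse is named as left out. The points lie right of 0 except with the 75th percentile of all features, and Amotl2 (0.35) and Sh3kbp1 (0.31) move toward 0 when local deviations are subtracted. The floor of 16, the trend and robust fit, the unmoderated test and the replicate block repeat the points of the first setting by construction.

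The neighbours of the 4 features on the array were not alike. The features of the array form a grid of 532 rows of 85, and each member was set beside the bright features in the 11 by 11 window around it. Around Amotl2, 23 of 23 bright neighbours were higher in the extract group, with a median difference of 0.31, and 15 of them, or 65.2%, had all extract mice above all control mice. Around Sh3kbp1, 37 of 40 were higher, with a median of 0.27, and 22, or 55%, had groups that did not overlap in that direction. Over all bright features that share was 9.54%. Around Gja1 the median of 21 neighbours was 0.067 and 1 had groups apart, and around Sh3gl1 the median of 20 neighbours was -0.020 and none had. No neighbour of Gja1 or of Sh3gl1 had a difference as large as theirs, and 1 neighbour of Amotl2 and 1 of Sh3kbp1 had. The members had been picked with their differences in view and the neighbours had not, so nothing is read from that count.

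**Figure D4:**
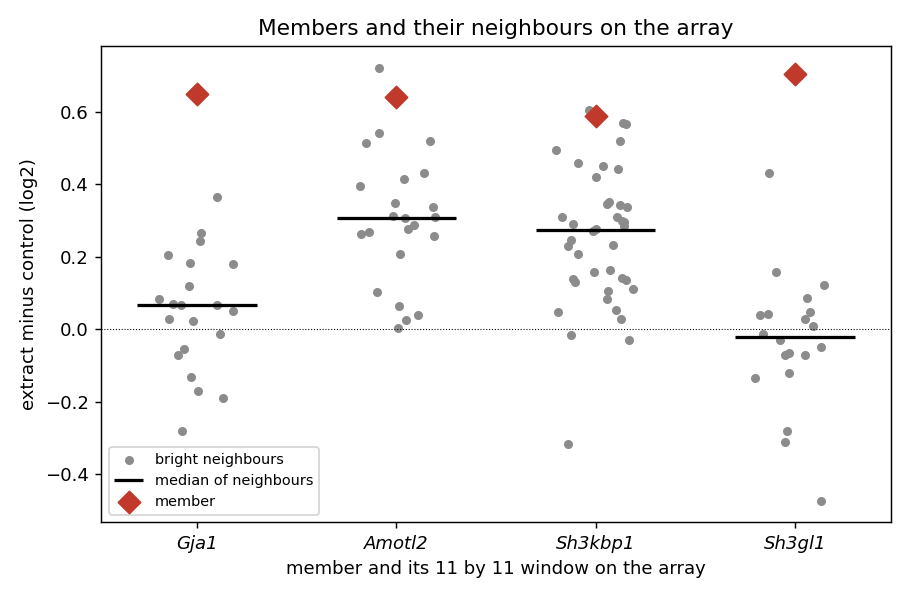
Extract minus control difference (log2, vertical axis) of each member (red diamond) and of the bright features in its 11 by 11 window on the array (grey points, line at their median). The neighbours of Amotl2 and Sh3kbp1 centre on 0.31 and 0.27, and those of Gja1 and Sh3gl1 on 0.067 and -0.020.

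With the local deviation of each array subtracted, the difference was 0.57 for Gja1, where it had been 0.65, and 0.71 for Sh3gl1, where it had been 0.70. Gja1 was 10.76, 10.77 and 10.72 in the extract mice, against 10.15, 10.04 and 10.34 in the control mice (SE of the difference 0.10). The 3 extract mice came closer together than without the subtraction, with an SD of 0.023 where it had been 0.082. Sh3gl1 was 12.39, 11.53 and 11.74 in the extract mice, against 11.07, 11.13 and 11.32 in the control mice (SE of the difference 0.22). Extract mouse 1 then stood farther above the other extract mice. Amotl2 was 10.34, 10.32 and 10.28 in the extract mice, against 10.11, 9.73 and 10.05 in the control mice, so the groups stayed apart with a difference of 0.35 (SE 0.12). Sh3kbp1 was 8.23, 8.49 and 7.77 in the extract mice, against 7.70, 7.94 and 7.90 in the control mice, a difference of 0.31 (SE 0.18). Extract mouse 3 then lay below 2 of the control mice, and the groups overlapped. Under this setting 3 of the 4 genes and 10.5% of bright features had all extract mice above all control mice. The features of other listed genes lay in these windows as well. Brs3, a bombesin-like receptor gene, is the feature next to Sh3kbp1, and its differences were 0.57 before and 0.29 after the subtraction. Tfcp2l1, a transcription factor gene in the same window, had 0.42 before and 0.15 after it. Trappc9, a subunit of the TRAPP trafficking complex in the window of Amotl2, had 0.72 before and 0.54 after it. Whether local deviations account for the differences was not tested.

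Within the groups, the mouse that was high or low differed from gene to gene. In extract mouse 1, Sh3gl1 was 0.35 above its group mean, Amotl2 0.12 above and Sh3kbp1 0.11 above, while Gja1 was 0.090 below. In extract mouse 3, Sh3kbp1 was 0.44 below its group mean and Gja1 0.068 above. In control mouse 2, Gja1, Amotl2 and Sh3gl1 were 0.21, 0.18 and 0.30 below their group means, and Sh3kbp1 was 0.13 above. With local deviations subtracted, control mouse 2 stayed the lowest control for Gja1 and Amotl2. For Sh3gl1 control mouse 1 was then lowest (11.07, against 11.13 in control mouse 2). After quantile normalization, pooled SDs within groups were 0.13 for Amotl2 and 0.14 for Gja1, and 0.30 for Sh3kbp1 and 0.30 for Sh3gl1. On that scale the first pair lay under and the second pair over the median of bright features. The members were chosen on these same intensities, so nothing is read from that comparison.

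Among the other listed genes, those whose values ran most like a member over the 6 arrays were named by Pearson's r, which here includes the gap between the groups that the list was made on. For Gja1 they were Slc26a11, an anion transporter gene (r = 0.98), and Dsp, which encodes desmoplakin of the desmosome (r = 0.95). For Amotl2 they were Xkr5 (r = 0.99) and the mitochondrial protease gene Afg3l1 (r = 0.98). For Sh3kbp1 they were Efcab5 (r = 0.99) and the serotonin receptor gene Htr2a (r = 0.96). For Sh3gl1 they were Slc51a, a subunit gene of a bile acid exporter (r = 0.98), and Ranbp3l (r = 0.97). No member was among the nearest genes of another member, and between members r lay from 0.56 for Sh3kbp1 and Sh3gl1 to 0.95 for Gja1 and Amotl2.

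Few partners of the 4 genes could be read, since only listed genes are named. The authors' table held 1 of 20 gap junction genes (Gja1), 0 of 22 tight junction genes, 1 of 16 genes of adherens junctions and desmosomes (Dsp), 1 of 22 angiomotin and Hippo pathway genes (Amotl2) and 2 of 52 endophilin, CIN85 and clathrin adaptor genes (Sh3kbp1 and Sh3gl1). Of the 5 genes in these lists, 0 passed the adjusted threshold in either direction, and of all 45220 features 0 did. Dsp, the desmosomal plaque protein that anchors intermediate filaments, had 10332, 15968 and 13658 in extract mice 1, 2 and 3, and 5373, 4709 and 9860 in control mice 1, 2 and 3. Each extract mouse was above each control mouse. Normalized values were 13.61 ± 0.06 in extract livers and 12.71 ± 0.38 in control livers (SD, n = 3 each), a difference of 0.90 (SE 0.23), and 0.81 with local deviations subtracted.

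The 4 genes were then set beside the rest of the authors' list. Their median difference was 0.64, against 0.60 (quartiles 0.50 and 0.70) for the other 118 listed genes. By difference, Sh3gl1 came 31st, Gja1 46th, Amotl2 50th and Sh3kbp1 70th of 122. The groups did not overlap, with extract above control, for 4 of 4 members and 79 of the other 118 genes. Over all features that share was 4.33%, and over bright features 9.54%. The authors placed Gja1 and Sh3kbp1 under cell adhesion, where the 7 genes had differences of 0.39 to 0.90, and Amotl2 and Sh3gl1 under cell division and proliferation, where the 14 genes had 0.11 to 0.94. The whole list was drawn up on these mice, so these counts describe the list and support nothing about the extract.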

How the data were processed

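Liver RNA of 6 mice was labelled with Cy3 and measured on 1-colour Agilent arrays, 3 per group, per the labels' protocols. Agilent Feature Extraction is the tool in the submitters' processing notes. Its version, the background correction and any scaling are not stated there. The deposited values are intensities, whole numbers that reach below 0, for 45220 features. The authors' deposited table of ratios per treated mouse was used only for gene symbols, accessions and feature numbers, not for its ratios. All 4 accessions matched the same symbols in RefSeq (GRCm38.p6).

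Intensities were quantile normalized between arrays, values under 1 were set to 1, and log2 was taken. All features entered 1 limma fit (3.58.1, R 4.3.3; lmFit, eBayes, two-sided, Benjamini-Hochberg over 45220 features, threshold 0.05), without a replicate block. The smallest exact two-sided permutation p that 3 against 3 mice allow is 0.1. In simulated data for this comparison over 45220 features, 0 of 50 changes of 1.5-fold, 0 of 50 of 2-fold, 2 of 50 of 3-fold and 43 of 50 of 8-fold were called. Restricted to the 9434 bright features, it recovered 7 of 50 at 1.5-fold, 36 at 2-fold, 44 at 3-fold and 50 at 8-fold. The local deviation is the median difference from the mean over arrays in an 11 by 11 window of features above 100 on at least 4 arrays. Genes named are the 4 members, for each the 2 listed genes with the highest Pearson r, and listed genes in lists of junction, Hippo, endocytic and liver cell type genes. Listed genes that lie in the members' windows were added after their values were seen. Members, lists and settings were chosen with earlier results of these data known. The labels name separate individuals, so n counts mice, and the number of arrays limits the precision.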

Additional observations from a re-analysis of the deposited data

How the results depend on the processing

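No member passed the adjusted threshold under any of the 15 alternative settings. With the 75th percentile of all features, all 4 differences were negative, at -0.19 for Gja1, -0.19 for Amotl2, -0.19 for Sh3kbp1 and -0.13 for Sh3gl1. There, 0 of the 4 genes and 2.14% of all features had all extract mice above all controls. Under the other settings the differences were positive. The floor of 16, the trend and robust fit, the unmoderated test and the replicate block could not change them. Those settings repeat the differences of the fit of all normalized features by construction. With local deviations subtracted on bright features, Amotl2 was 0.35, Sh3kbp1 0.31, Gja1 0.57 and Sh3gl1 0.71. All extract mice were then above all controls for 3 of the 4 genes, without Sh3kbp1, and for 10.5% of bright features. With 1 mouse left out the differences ranged from 0.54 to 0.70 for Gja1, 0.56 to 0.69 for Amotl2, 0.42 to 0.81 for Sh3kbp1 and 0.53 to 0.85 for Sh3gl1. Over all features, the count at a limma adjusted p below 0.05 was 31 without scaling and 1 on bright features only, where it was 0 in the fit of all normalized features. It ran from 0 to 190 with 1 mouse left out, at 190 without mouse 1 and 41 without mouse 3 of the extract group. The cause of these changes was not tested. The labels number the mice of both groups 1 to 3 and do not say that a number marks a shared batch. Between same-numbered mice, deviations from the group mean over bright features correlated at 0.043 for number 1, 0.15 for number 2 and 0.25 for number 3. Between mice with unlike numbers these correlations lay from -0.19 to 0.031, below each same-number value. Whether a number marks a shared batch was not tested. The fit with the replicate block called 0 features. Its member differences, 0.59 to 0.70, equal those without the block by construction, since the design is balanced. Other background corrections were not run, since the files used here hold 1 value per feature.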
